A study of Mus musculus with 12 samples.

Results

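The genes of the WNT pathway were examined in the RNA of C2C12 cells, a mouse myoblast line that proliferates in growth medium (GM) and fuses into myotubes after serum is lowered. A gene belonged to this group if it was protein-coding and its symbol was that of a Wnt ligand, a frizzled receptor, a secreted frizzled-related protein (Sfrp), a Dickkopf (Dkk), an R-spondin (Rspo), an Lgr receptor numbered 4 to 6, a dishevelled (Dvl), or any of the components Lrp5, Lrp6, Ror1, Ror2, Axin1, Axin2, Nkd1, Nkd2, Ctnnb1, Wif1, Rnf43, Znrf3, Lef1, Tcf7, Tcf7l1 and Tcf7l2. The rule used names alone, and it found 35 genes among the 9266 protein-coding genes that have a row in any of the 3 tables of the study. The mouse annotation used here (GENCODE M21) holds 63 protein-coding genes with such names, and the other 28 are not analysed here.

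WNT proteins are secreted, lipid-modified ligands that bind frizzled receptors together with the co-receptors LRP5 and LRP6. Binding recruits dishevelled and axin to the membrane, which spares beta-catenin from destruction so that it can enter the nucleus and act with the TCF and LEF factors. Frizzleds and ROR receptors also carry signals that do not need beta-catenin, and secreted SFRP and DKK proteins hold the ligands or co-receptors back. In skeletal muscle the pathway is known for its part in the induction of the myogenic factors in the embryo and in the growth and differentiation of satellite cells.

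Each RNA-seq group had 2 libraries. GFP-overexpressing cells were sequenced in GM (day 0) and after 4 days in differentiation medium (D4), and METTL3- and METTL14-overexpressing cells were sequenced in GM. METTL3 and METTL14 form the core of the complex that writes N6-methyladenosine (m6A) on RNA. All groups were stable C2C12 lines made with lentivirus and selected with puromycin, and the control carried GFP in the same vector, which has a viral (CMV) promoter. The titles of the METTL14 libraries give day 0 whereas their time point field gives D4, and the titles were followed. GFP-overexpressing cells also gave 4 MeRIP-seq libraries, an input and an m6A-captured library at each stage, which are not analysed here.

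The tables compared D4 with GM, METTL3 with GFP in GM, and METTL14 with GFP in GM. A row means that the authors kept the gene in that comparison at a false discovery rate of at most 0.05. The GFP libraries in GM are common to all 3 tables, so a gene shifted in those libraries can have a row in more than a single table. The value used here is the authors' mean normalized count, a single mean over libraries for each gene, which did not depend on the table it was read from (largest relative difference 4.77e-10). It is a level and carries no direction of change, no spread between libraries and no depth per library, so no statistical test was made from it. Which libraries it covers is not stated. Since it is the same for all 3 comparisons, it is read here as a mean that mixes the states and the overexpressing lines. The order of the genes within GM, within D4 or within a line may therefore differ from the order given here. In bulk RNA, fewer cells of a kind and less RNA per cell cannot be told apart.

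The cell type on the labels was checked against markers. All 10 genes of the skeletal muscle list had a row, as did 9266 of the 22028 annotated protein-coding genes. Des (muscle intermediate filament) had a mean normalized count of 24157 (6435 per kb of exon). Myod1 (myogenic determination factor) had 1845 (991.6 per kb) and Myog (differentiation factor) 2124 (1421 per kb). Mef2c and Pax7 of the same list were far lower, at 18.32 and 3.705 per kb. For D4 against GM 9 of the 10 were listed, all but Myod1, where 40.0% of the annotated protein-coding genes were. For METTL3 against GFP 5 of the 10 were listed and for METTL14 against GFP 6. Of the annotated protein-coding genes 7.78% and 4.90% were listed there. A row is a listed difference and not a measure of expression, so these counts by themselves do not identify the cell type. Of the fibroblast and mesenchymal list 4 of 5 genes had a row, with Col1a1 at a mean normalized count of 34402 (5242 per kb). Col3a1 of that list had 86942 (8857 per kb). None of the 3 endothelial, 3 leukocyte or 3 adipocyte markers had a row, and 1 of 3 neuronal markers did, Tubb3 at 465.5, which leaves the level of the others unknown. Mettl3 had a row for METTL3 against GFP but not for METTL14 against GFP, and Mettl14 had a row for METTL14 against GFP but not for METTL3 against GFP. Their mean normalized counts were 5827 and 6250, and the introduced sequences were mouse cDNAs, so their reads can count toward these genes. Since the authors' fold changes were not used, this check of the labels shows only that each gene was listed in the comparison of its own line. Mettl14 was also listed for D4 against GM, and Mettl3 was not.

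Promoter sequences of 4 genes are shown first as examples. Wnt10b and Nkd2 are the members with a row in every table. How many of all listed genes have a row in every table was not counted, so nothing is read from this overlap. Wnt11 has the lowest level per length and the sole TCF word among the members' promoters, and Dkk2 is a secreted inhibitor with a TATA word near its start site. Each run holds the 250 bases before the transcription start site of RefSeq, read 5′ to 3′ on the strand of the gene, on build GRCm38.p6. They lie at chr15:98778151-98778400 (minus strand), chr13:73847632-73847881 (minus strand), chr7:98834862-98835111 (plus strand, the first of 2 start sites) and chr3:132085042-132085291 (plus strand), each directly upstream of the first exon. Capitals mark CTTTGAT or CTTTGAA (the letters that TCF and LEF factors are known to bind), CANNTG (the E-box letters bound by factors such as MYOD1) and TATAAA, on either strand. The Wnt10b, Nkd2, Wnt11 and Dkk2 runs are as follows.
Wnt10b: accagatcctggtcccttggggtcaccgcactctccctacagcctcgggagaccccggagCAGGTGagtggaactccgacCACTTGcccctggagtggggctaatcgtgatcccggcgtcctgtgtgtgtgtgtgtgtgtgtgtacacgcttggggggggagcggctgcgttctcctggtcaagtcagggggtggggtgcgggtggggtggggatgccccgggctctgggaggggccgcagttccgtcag
Nkd2: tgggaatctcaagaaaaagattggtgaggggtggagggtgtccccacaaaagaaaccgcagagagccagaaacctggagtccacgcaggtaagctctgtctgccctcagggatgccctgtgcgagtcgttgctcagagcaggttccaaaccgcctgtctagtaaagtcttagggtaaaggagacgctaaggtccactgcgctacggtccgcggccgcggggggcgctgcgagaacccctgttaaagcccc
Wnt11: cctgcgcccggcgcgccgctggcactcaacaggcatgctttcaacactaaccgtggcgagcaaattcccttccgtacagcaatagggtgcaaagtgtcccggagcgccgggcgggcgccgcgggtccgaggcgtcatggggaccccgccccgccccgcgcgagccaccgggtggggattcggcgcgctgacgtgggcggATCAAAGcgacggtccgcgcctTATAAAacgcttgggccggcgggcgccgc
Dkk2: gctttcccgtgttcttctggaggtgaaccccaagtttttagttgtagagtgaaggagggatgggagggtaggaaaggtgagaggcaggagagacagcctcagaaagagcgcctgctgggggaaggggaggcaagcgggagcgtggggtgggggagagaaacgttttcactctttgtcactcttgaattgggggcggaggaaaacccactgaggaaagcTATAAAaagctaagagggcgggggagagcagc

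The Wnt10b run holds an E-box word at -190 (CAGGTG) and another at -170 (CACTTG), counted from the start site. The Nkd2 run holds none of the words. In Wnt11 the letters ATCAAAG, the reverse complement of CTTTGAT, begin at -51 and TATAAA begins at -29. In Dkk2 TATAAA begins at -32. A match of letters is a description of the reference and not a bound site.

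**Figure D1:**
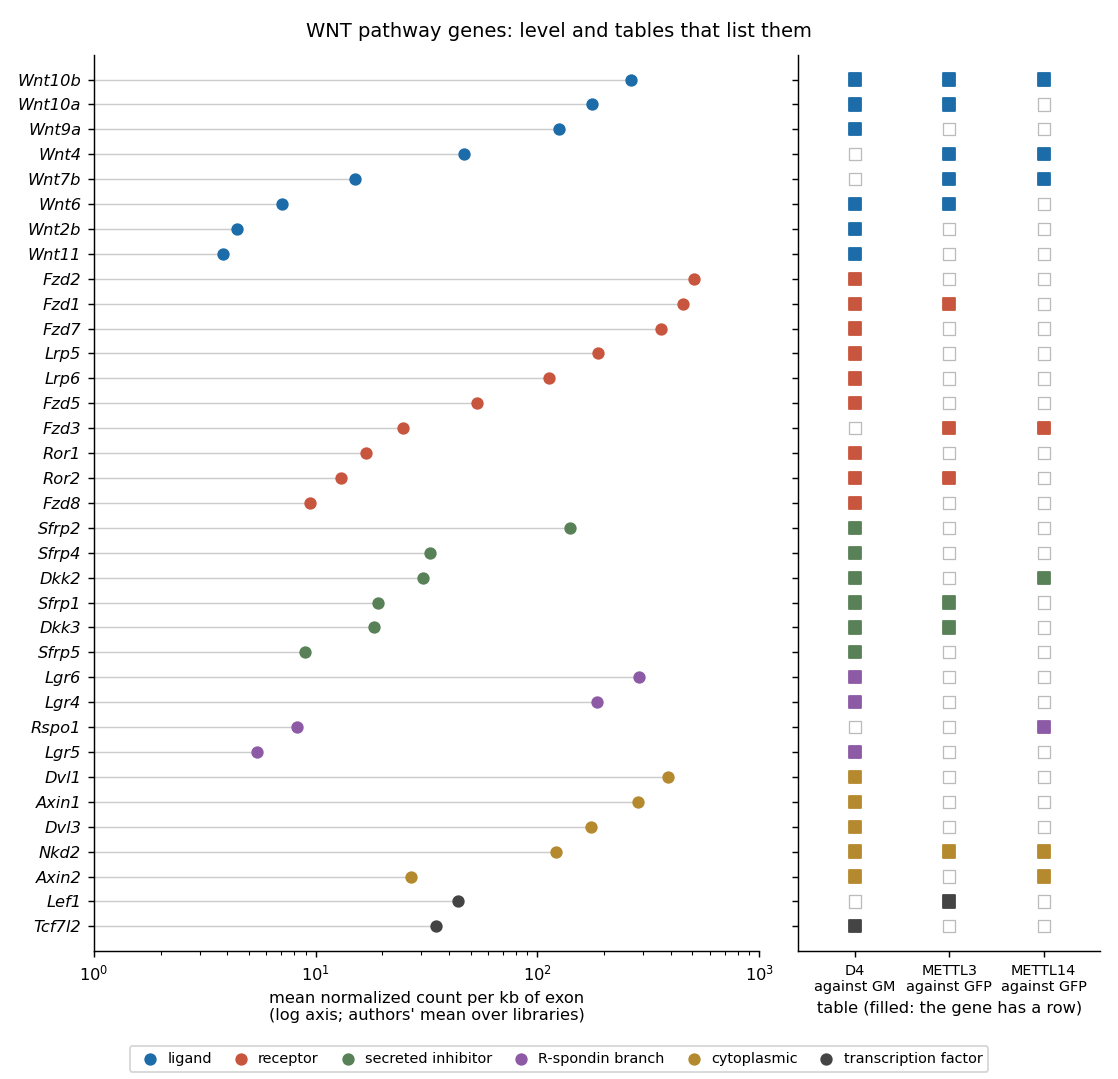
Each line is a WNT pathway gene, ordered by role and then by level. The left panel gives the authors' mean normalized count per kb of exon on a log axis, from 3.81 for Wnt11 to 508 for Fzd2, and the right panel has a filled square where a table lists the gene, with Wnt10b and Nkd2 filled in each column.

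As counts, not divided by length, the 35 genes had a median of 306 (interquartile range 67.7 to 1091), with extremes of 15.5 for Wnt6 and 1969 for Lgr6. Over all 9266 protein-coding genes listed the median was 545 (interquartile range 178 to 1257). A value of 100 or more was reached by 23 members (65.7%) and by 82.1% of all listed protein-coding genes, and 5 members lay under 20. Because longer transcripts give more reads, the levels of single genes were set against each other only after division by the summed exon length in kb. On that scale the median was 43.9 per kb for the members (interquartile range 15.9 to 181) and 115 per kb for all listed protein-coding genes (interquartile range 39.2 to 273). The highest member, Fzd2, stood at the 87.3 percentile of the listed genes, and the lowest, Wnt11, at the 5.31 percentile.

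**Figure D2:**
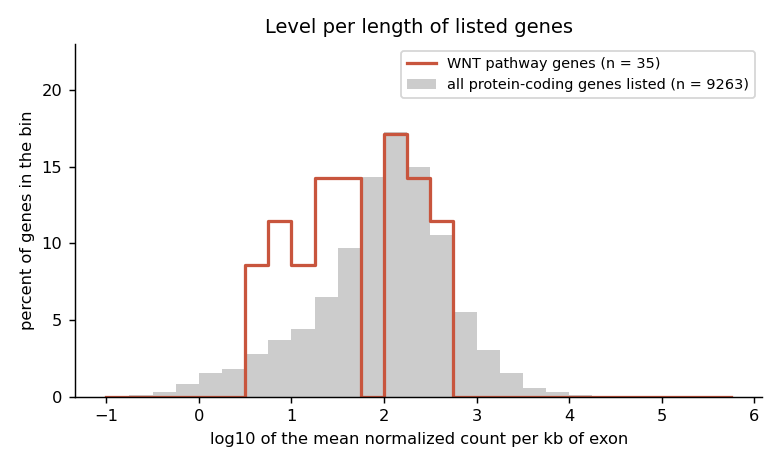
The horizontal axis is the log10 of the mean normalized count per kb of exon, and the vertical axis the percent of genes in each bin. The grey bars are all protein-coding genes listed that have a length (n = 9263) and the red line the WNT pathway genes (n = 35), which lie further to the left (medians 115 and 43.9 per kb). The empty bin of the red line holds Tcf7l2 (82.4 per kb) once the longest transcript is used as the length.

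Among the ligands, 8 of the 19 annotated Wnt genes had a row in some table. Wnt10b (ENSMUSG00000022996, chromosome 15 of GRCm38, 98770712 to 98778150), a ligand known to favour myogenic over adipogenic fate, was the most abundant of them, with a mean normalized count of 902.0 and 265 per kb. Its close relative Wnt10a followed at 175 per kb, Wnt9a at 125 per kb and Wnt4 at 46.4 per kb. The other ligands were low, with Wnt7b at 15.05 per kb, Wnt6 at 7.06, Wnt2b at 4.42 and Wnt11 at 3.81 per kb. Wnt10b thus stood 69.7-fold above Wnt11, a ligand of the beta-catenin-independent branch, and the mean normalized counts of Wnt6, Wnt2b and Wnt11 were 15.47, 18.57 and 15.75. The precision of such low means was not estimated.

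Some Wnt genes are neighbours in the genome. Wnt6 (chromosome 1, 74771892 to 74785322) and Wnt10a (74791516 to 74804179) lie 6.19 kb apart on the plus strand, and both were listed for D4 and for METTL3. Their levels differed widely, at 7.06 and 175 per kb. Wnt10b lies 11.7 kb from Wnt1, and Wnt9a lies 16.2 kb from Wnt3a on chromosome 11, and in these pairs only Wnt10b and Wnt9a had a row. No other pair of WNT genes with a row lay within 100 kb.

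The 10 receptors and co-receptors had a median of 83.4 per kb, against 30.7 per kb for the 8 ligands and 24.9 per kb for the 6 secreted inhibitors. Fzd2 (ENSMUSG00000050288, chromosome 11, 102604396 to 102608058) had the highest level per length of all members on this pooled mean, 508 per kb with a mean normalized count of 1862. Fzd1 followed at 451 per kb and Fzd7, known as a receptor for Wnt7a on satellite cells, at 362 per kb. Fzd5 at 53.5 per kb, Fzd3 at 24.65 per kb and Fzd8 at 9.44 per kb were far lower, a range of 53.9-fold over the 6 frizzleds with a row. The co-receptor genes Lrp5 and Lrp6 had 187 and 113 per kb. Ror1 and Ror2, receptor tyrosine kinases that bind Wnt5a, were low at 16.8 and 13.0 per kb.

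The secreted inhibitors were led by Sfrp2 at 140 per kb, a frizzled-like protein that binds ligands, with a mean normalized count of 302. Sfrp4 had 32.9 per kb, Sfrp1 19.2 per kb and Sfrp5 8.95 per kb. Dkk2 and Dkk3 had 30.6 and 18.3 per kb. DKK2 binds the LRP co-receptors, whereas DKK3 is a divergent member of its family.

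In the R-spondin branch, in which R-spondins bind Lgr receptors and so protect frizzleds from removal, the receptor genes differed strongly. Lgr6 had 287 per kb with a mean normalized count of 1969, and Lgr4 had 186 per kb. Lgr5, a stem cell marker in the gut, had 5.41 per kb, 53.1-fold below Lgr6, and 25.4-fold below it when the longest transcript was the length. The ligand Rspo1 had a mean normalized count of 15.95 and 8.23 per kb.

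Of the cytoplasmic genes, Dvl1 had 387 per kb and Dvl3 174 per kb. Axin1, a scaffold of the complex that destroys beta-catenin, had 284 per kb, and its relative Axin2, a target gene and feedback inhibitor of the pathway, 27.0 per kb, a 10.5-fold difference. Nkd2 (ENSMUSG00000021567, chromosome 13, 73818534 to 73847631), an inhibitor that binds dishevelled, had a mean normalized count of 584 and 121 per kb. The transcription factor genes Lef1 and Tcf7l2 were close to each other, at 43.9 and 34.9 per kb. With the longest transcript in place of the summed exons they rose to 105.6 and 82.4 per kb, and Lgr5 to 11.6 per kb.

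Of the 35 genes, 30 (85.7%) had a row for D4 against GM, where 95.2% of the 9266 listed protein-coding genes did. This table holds most of the rows from which that base was drawn, so its share is high for any set of listed genes. These were 9 of 10 receptors (all but Fzd3), all 6 secreted inhibitors, all 5 cytoplasmic genes, 6 of 8 ligands (all but Wnt4 and Wnt7b), the 3 Lgr genes and Tcf7l2. The members without a row for this comparison were Wnt4, Wnt7b, Fzd3, Rspo1 and Lef1. Counted over the annotation instead, 47.6% of the 63 WNT genes and 40.0% of the 22028 protein-coding genes had a row.

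For METTL3 against GFP 12 members (34.3%) had a row, against 18.5% of the listed protein-coding genes. The ligands stood for 5 of them, Wnt10a, Wnt10b, Wnt4, Wnt6 and Wnt7b. That is 62.5% of the 8 ligands with a row anywhere, and 26.3% of the 19 annotated ligands. The others were the receptors Fzd1, Fzd3 and Ror2, the secreted inhibitors Dkk3 and Sfrp1, the cytoplasmic inhibitor Nkd2, and Lef1. No gene of the R-spondin branch was listed. Genes with no row for D4 enter the base only through a row for METTL3 or METTL14, here Wnt4, Wnt7b, Fzd3, Lef1 and Rspo1. The 34.3% and the 18.5% are therefore partly set by how the base was drawn. Over the annotation, whose genes were not chosen by a row, the shares were 19.0% of WNT genes and 7.78% of protein-coding genes.

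For METTL14 against GFP 8 members (22.9%) had a row, against 11.6% of the listed protein-coding genes. They were the ligands Wnt10b, Wnt4 and Wnt7b, the receptor Fzd3, the secreted inhibitor Dkk2, the R-spondin Rspo1, and the cytoplasmic inhibitors Axin2 and Nkd2. Of these 8 genes, Wnt4, Wnt7b, Fzd3 and Rspo1 entered the base only through a row for METTL3 or METTL14. The 22.9% is therefore partly set by that base. Over the annotation the shares were 12.7% and 4.90%. Rspo1 was listed for METTL14 alone and Lef1 for METTL3 alone, and neither was listed for D4. Whether such genes differ between the lines was not tested, since a missing row gives no size of change.

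**Figure D3:**
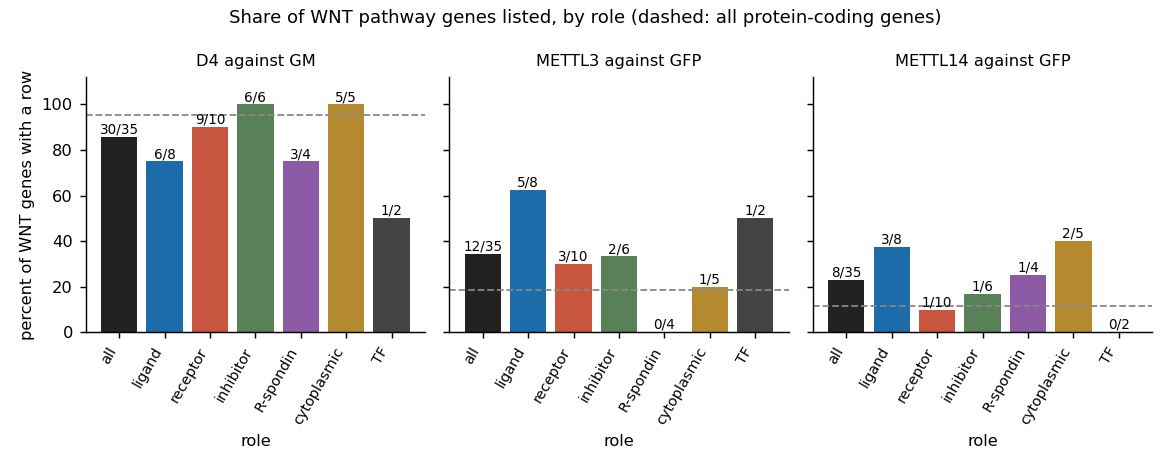
Each panel is a table, each bar the percent of the WNT genes of a role that the table lists, with the counts above it, and the dashed line is the percent over all listed protein-coding genes (95.2, 18.5 and 11.6). Ligands with a row in any table reach 62.5% for METTL3 and 37.5% for METTL14, and all secreted inhibitors and cytoplasmic genes are listed for D4. Over the 19 annotated ligands, not drawn here, the shares are 26.3% for METTL3 and 15.8% for METTL14. For D4 they are 66.7% of the 9 annotated secreted inhibitors and 62.5% of the 8 annotated cytoplasmic genes.

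The members had lower levels than the listed genes as a whole, and the part of this in the listed shares was not tested beyond a limit on the level. The 12 members listed for METTL3 had a median mean normalized count of 255, against 635 for all protein-coding genes listed there, and the 8 listed for METTL14 had 172 against 576. When genes with a mean under 100 were left out, 7 of 23 members (30.4%) were listed for METTL3 against 19.5% of 7605 genes. With the same limit 6 of 23 (26.1%) were listed for METTL14 against 12.1%, and 20 of 23 (87.0%) for D4 against 95.8%. All of these shares rest on the same base of listed genes.

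Other genes of the pathway, taken from a list of 44, were counted in the same way. A row was found for 28 of them, 25 (56.8%) for D4, 10 (22.7%) for METTL3 and 6 (13.6%) for METTL14. Of all protein-coding genes of the annotation these tables list 40.0%, 7.78% and 4.90%. The list of 44 was chosen with earlier results of these data known, so its shares and those of its parts are not independent of the data. The genes of planar polarity, the branch that orients cells without beta-catenin, had a row in 7 of 9 cases, 6 for D4, 5 (55.6%) for METTL3 and 4 (44.4%) for METTL14, to be read against the same shares of the annotation. Vangl2, Prickle1 and Prickle2 were listed in every table, with 20.98, 61.5 and 3.58 per kb. Daam1, a formin that acts below dishevelled, had 132 per kb and was listed for METTL3 and METTL14 but not for D4. The secretion genes Porcn, which attaches the lipid to WNT proteins, and Wls, which carries them to the surface, were abundant at 1324 and 1282 per kb and were listed for D4 only. Of the destruction complex and its partners 6 of 11 genes had a row, all for D4, and Apc, Gsk3b and Csnk1a1 were among those without. Only Csnk1e, a casein kinase gene at 253 per kb, was also listed for METTL3 and METTL14. Notum, whose enzyme removes the lipid from WNT proteins, was listed for METTL3 only, at 28.2 per kb.

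The promoters were compared over the whole RefSeq table of 300 bases per start site, 250 before and 50 after it. Entries were found for 23 of the 35 members, with 28 start sites. Wnt11 held the sole TCF word, which is 3.57% of the members' promoters, where 5.81% of the promoters of listed protein-coding genes and 8.65% of all promoters held it. E-box words were held by 60.7%, 64.2% and 72.3% of these sets, and TATAAA by 17.9%, 7.70% and 13.6%. The 17.9% is 5 of the 28 start sites. The word lay at -32 in Dkk2 and -29 in Wnt11, but at -202 in Fzd1, -231 in Lef1 and -242 in Tcf7l2. In Lef1 and Tcf7l2 it was on the opposite strand. The members' promoters had a median GC content of 67.3%, against 60.7% for listed protein-coding genes, and 21 of the 28 had an observed to expected CpG ratio of at least 0.6, as did 67.1% of the latter. The Axin2 promoter held none of the TCF, E-box or TATA words in this window.

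Because the study altered m6A writers, the word GGACT, a frequent form of the m6A consensus, was counted in the longest protein-coding transcript of each gene. It occurred in 33 of 35 members (94.3%) and in 92.9% of the listed protein-coding genes that have such a transcript (n = 9242). The median density was 1.16 per kb for the members and 1.05 per kb for the listed genes. Lrp5 had the highest density, 3.29 per kb with 17 words, and Lrp6 had the most words, 19. Sfrp2 and Rspo1 held none, and Fzd7 and Lef1 held 1 each. The 12 members listed for METTL3 had a median of 1.00 per kb and the 8 listed for METTL14 1.04 per kb, against 1.08 and 1.09 per kb for all protein-coding genes listed there. Whether any of these adenosines was methylated was not examined.

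**Figure D4:**
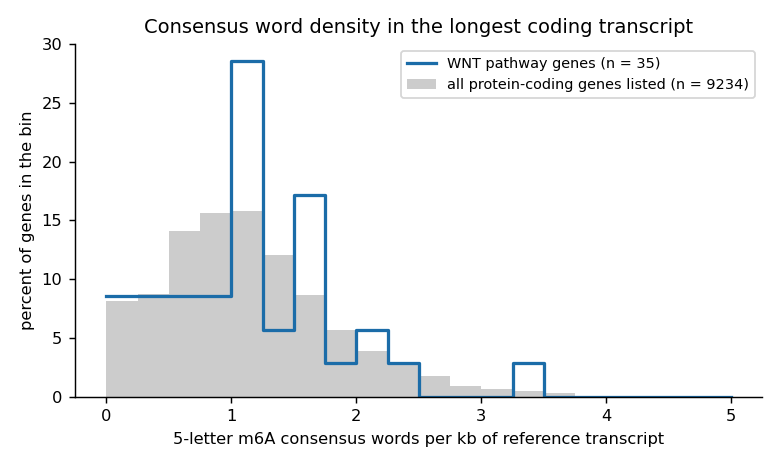
The horizontal axis is the number of GGACT words per kb of the longest coding transcript and the vertical axis the percent of genes in each bin. The blue line for the WNT pathway genes (n = 35, median 1.16 per kb) overlaps the grey bars of the listed protein-coding genes (median 1.05 per kb, 8 genes past the plotted range left out), with Lrp5 at 3.29 per kb farthest to the right.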

How the data were processed

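RNA-seq tables of C2C12 cells were used. Reads were aligned by the authors with hisat2 (GRCm38), assigned to Ensembl genes (release 102) by featureCounts, and groups were compared with DESeq2. Program versions are not given in the sources used here. The deposited value used here is a signal, the mean over libraries of counts that the authors had divided by size factors (mean normalized count), and which libraries entered is not stated. The tables also hold the fold changes, standard errors, test statistics and p-values of the authors' own comparisons and 1 stray value without a heading in 2 of them, and none of these was used. Depth per library is unknown, and the precision of each level was not estimated.

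Members and lists were chosen with earlier results of these data known. All members could be named, and the other pathway genes and markers came from fixed lists. Rows were counted per table. Levels were divided by the summed exon length of GENCODE M21 (GRCm38), in which 9263 of the 9266 listed protein-coding genes were found. Promoters came from the RefSeq table (GRCm38.p6), matched by symbol. The search for TCF words and the summed exon length were tested on simulated data, and the name rule on a short list of symbols. The counting of rows was not tested in this way. Python 3.11.15, pandas 2.3.3, NumPy 2.4.6, SciPy 1.17.1 and matplotlib 3.10.9 were used. The alternatives were limits of 10 and 100 on the mean normalized count, the annotation as the base, subsets of the tables, transcript length, and other promoter windows and words.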

Additional observations from a re-analysis of the deposited data

How the results depend on the processing

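Limits of 10 and 100 on the mean normalized count left the counts of listed genes within 1.5 times, except that the limit of 100 left 7 of the 12 WNT genes for METTL3. With the annotation as the base, the listed share became 47.6% for D4 (85.7% with listed genes as the base). It became 19.0% for METTL3 (34.3%) and 12.7% for METTL14 (22.9%). The counts of listed members are the same on both bases, and only the base differs. The median mean normalized count of 306 became 338 over the members listed for D4 and 149 over those listed for METTL3 or METTL14. The median per kb of 43.9 became 53.5 with the longest transcript. The share of members' promoters with the TCF word, which rests on the Wnt11 site alone, was 3.57% in the shorter window and with the longer words alike. Over the promoters of listed protein-coding genes the share of 5.81% became 5.24% in the shorter window and 3.14% with the longer words. With the longer words the members' share was thus no longer the lower of the 2. These bases and subsets differ by construction in which genes they hold. Protein identity was not run, and no library could be left out, because no value per library was analysed here. No paired analysis was possible because the result comes from no test. The low means of Wnt6, Wnt11, Rspo1, Sfrp5 and Wnt2b, all under 20, limit what their order can show.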
